A study of Homo sapiens with 27 samples.

Results

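The comparison described here sets A549 cells that received siRNA against SRSF1 beside A549 cells that received only Lipofectamine, the lipid carrier of the transfection. A549 is an established human lung adenocarcinoma cell line. Members were chosen by the titles of the samples, which gave 18 of the 27 hybridizations of the experiment, 9 for each group. The 3 hybridizations of each sample number were averaged, so 6 of the 9 samples entered the comparison, 3 with SRSF1 siRNA and 3 with Lipofectamine. The other 3 samples, transfected with scramble siRNA (an RNA that targets no cellular mRNA), shared the fit and are given beside the comparison where they differ from Lipofectamine. Lipofectamine alone lacks both the siRNA molecule and its target sequence, so an effect of carrying any siRNA and an effect of the SRSF1 target cannot be told apart by these 6 samples. The RNA was hybridized to HTA 2.0 arrays, which carry probes on exons and on the junctions between them. The dose, the time after transfection and the sequence of the siRNA were not given in the sources used here.

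SRSF1 is a member of the SR protein family, RNA-binding proteins that attach to short exonic sequences and help the spliceosome to choose splice sites. Through this binding an SR protein can favour the inclusion of one exon and the skipping of another, and SRSF1 also acts in mRNA export, translation and the decay of transcripts. It is known as a splicing factor that is often raised in tumours, lung adenocarcinoma included. On the arrays, each splicing event is described by 3 log2 signals. The reference path holds the probes that all isoforms of the event share, path 1 is the path of the larger genomic length and path 2 is its alternative. In a cassette event path 1 contains the exon and path 2 joins its neighbours directly. An event was called if path 1 and path 2 changed in opposite directions at an adjusted p under 0.05. This p is not the p of a single limma contrast. It combines the one-sided limma p-values of path 1 and path 2 by their sum, and is given below as the limma adjusted p of an event. The fit takes a common spread for the paths of an event. Both the fit and the sum treat the paths as independent, although they were measured on the same samples. The very small adjusted p-values of events rest on this. A gene value averages, over all events of a gene, the log2 signals of their reference paths. The reference path of an event can be path 1 or path 2 of another event of the gene. A gene value is therefore not independent of the splicing changes.

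The primer pairs designed for the cassette exons are shown first, because a PCR product from such a pair shows both isoforms and ties these 4 events to an exon that can be measured without the arrays. All are written from 5′ to 3′ and were set in lower case here, with none of their letters marked. The events lie on chromosome 15 of GRCh37 from 69713986 to 69714774 (KIF23), on chromosome 3 from 197348575 to 197350253 (AC024560.3), on chromosome 15 from 76196323 to 76205608 (FBXO22) and on chromosome 17 from 16052765 to 16055312 (NCOR1).
KIF23 forward: tgtggctaatcccttggtca
KIF23 reverse: ggcatcaacctcacactgta
AC024560.3 forward: cctaccaggtcacacactgt
AC024560.3 reverse: ccaccaaatgcacgctgata
FBXO22 forward: gttgagtaacctggcggag
FBXO22 reverse: actgtatgtggtaagatgcgaac
NCOR1 forward: ggtcttggcccaaaagttga
NCOR1 reverse: gagctgatcataacgctggc

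The table of signals holds 73554 events of 16733 genes. Array medians ran from 6.23 to 6.33 on the log2 scale. The array with the highest median, hybridization 1 of Lipofectamine sample 1, also had the lowest mean correlation with the other arrays (0.971). Averaged samples of the Lipofectamine group correlated with each other at 0.992 to 0.994, those of SRSF1 siRNA at 0.994 to 0.996, and samples of one group with those of the other at 0.978 to 0.979. The median SD of a gene value was 0.075 over the Lipofectamine samples and 0.048 over the SRSF1 siRNA samples. Whether the samples came from separate cultures rests on reading the sample number as the biological replicate, which the labels do not settle. The p-values of genes therefore measure the spread between these samples. Those of events also count the paths measured on the same sample as independent values. The level of SRSF1 itself and markers of A549 were not analysed here, since the gene IDs of the table could be given a name for only 10 genes.

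Changes of gene values were widespread and went both ways. Of 12545 tested genes, 3477 (27.7%) were higher with SRSF1 siRNA than with Lipofectamine and 3025 (24.1%) were lower. Most of these changes were small, and the large ones were mostly falls. Rises past 1.5-fold numbered 533 and falls past 1.5-fold numbered 845. It passed 2-fold in 72 higher and 296 lower genes, and 4-fold in 3 higher and 12 lower genes. The median change was 0.31 on the log2 scale in the higher genes, -0.37 in the lower genes and 0.033 over all genes tested. The 3 and 3 samples did not overlap in 59.1% of all genes tested. An unadjusted p under 0.05 was found in 7074 genes. The smallest change that passed was 0.11 on the log2 scale, and the median standard error was 0.056, so a call alone does not mark a large change.

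Genes of middle and high signal were called more often than dim ones in each direction. Of the 4212 genes with a mean value between 6 and 7, 21.8% were higher and 20.1% lower, against 35.6% and 28.6% of the 2155 genes between 8 and 9. The falls past 2-fold outnumbered the rises past 2-fold in each of the 6 classes of signal, for example with 95 falls and 20 rises among the 3746 genes between 7 and 8. Among the 349 genes above 10 there were 6 falls and 1 rise of that size.

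**Figure D1:**
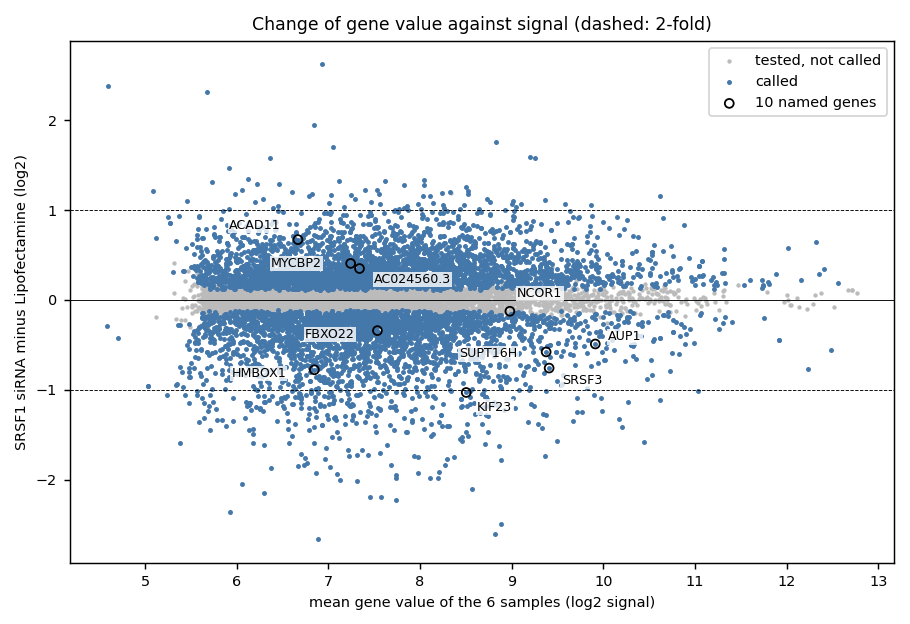
Change of the gene value with SRSF1 siRNA against Lipofectamine (log2, vertical) by the mean gene value of the 6 samples (log2 signal, horizontal) for the 12545 genes tested, each point a gene, called genes in blue and the 10 named genes circled. The points below the lower 2-fold line (296 called genes) are more than those above the upper one (72), and KIF23 lies at the lower line.

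The largest changes belong to genes known here only by their ID. ENSG00000219200 had gene values of 5.59, 5.74 and 5.52 with Lipofectamine and of 8.45, 8.25 and 8.02 with SRSF1 siRNA. It rose by 2.62 on the log2 scale (standard error 0.13), and its 3 scramble samples lay at 5.86, 6.19 and 5.61, near Lipofectamine. ENSG00000117586 rose by 2.38 (standard error 0.16), from 3.40 ± 0.068 (SD, n = 3) to 5.78 ± 0.15 (SD, n = 3). Both genes lay below the threshold of expression (5.77) in all 3 Lipofectamine samples, so the sizes of their rises are uncertain. ENSG00000117586 lay below it in all scramble samples too and entered the test only through an SRSF1 siRNA sample at 5.94.
The largest falls were those of ENSG00000010292 and ENSG00000117399. ENSG00000010292 had 8.18, 8.25 and 8.21 with Lipofectamine and 5.71, 5.84 and 5.10 with SRSF1 siRNA. It fell by 2.66 (standard error 0.14), and 1 of the SRSF1 siRNA samples lay well below the other two. With SRSF1 siRNA this gene had a mean under the threshold of expression, so the size of its fall is uncertain. ENSG00000117399 fell by 2.604 (standard error 0.051), from 10.1 ± 0.037 (SD, n = 3) to 7.52 ± 0.067 (SD, n = 3), with little spread in either group.

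Of the 10 named genes, 6 were lower with SRSF1 siRNA, 3 were higher and NCOR1 did not pass. These genes were named because their events head the study's own ranking of SRSF1 siRNA against scramble siRNA. That ranking used the same SRSF1 siRNA samples, so the genes are no random draw and their calls against Lipofectamine are no separate evidence. In MYCBP2, ACAD11 and HMBOX1, a path of the ranked event is also the reference path of another event of the gene. That path therefore enters the gene value and its change. KIF23, a kinesin of the central spindle that works in cytokinesis, fell most. Its gene values were 8.93, 9.11 and 9.01 with Lipofectamine and 8.10, 8.04 and 7.82 with SRSF1 siRNA. The groups lay far apart, and KIF23 fell by 1.03 on the log2 scale, or 2.04-fold (standard error 0.074, limma adjusted p = 2.10e-07).

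SRSF3 is an SR protein like SRSF1 and regulates the splicing of its own transcript. Its gene values were 9.73, 9.80 and 9.84 with Lipofectamine and 8.98, 9.01 and 9.09 with SRSF1 siRNA, and the groups did not overlap. It fell by 0.76 (standard error 0.048). HMBOX1, a homeobox protein that binds telomeric DNA, had 7.28, 7.36 and 7.07 against 6.58, 6.41 and 6.38. It fell by 0.78 (standard error 0.091), and even its lowest Lipofectamine sample stayed above all SRSF1 siRNA samples. SUPT16H, the large subunit of the FACT complex that moves histones during transcription, had 9.61, 9.68 and 9.70 against 9.06, 9.11 and 9.08. Its spread was narrow in both groups and it fell by 0.58 (standard error 0.045).

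AUP1, a protein of lipid droplets and of the degradation of proteins from the endoplasmic reticulum, had gene values of 10.09, 10.16 and 10.22 with Lipofectamine and of 9.67, 9.66 and 9.67 with SRSF1 siRNA, and fell by 0.49 (standard error 0.048). FBXO22, an F-box protein that brings substrates to a ubiquitin ligase, showed 7.55, 7.84 and 7.73 against 7.24, 7.49 and 7.36. Its groups came close to each other, and FBXO22 fell by 0.34 (standard error 0.083, adjusted p = 0.00422), the smallest fall of the 6. When all paths, and not only the reference paths, were averaged into the gene value, FBXO22 had a change of 0.00094 (adjusted p = 0.991) and was no longer called. The same setting made the falls over 1.5 times smaller in KIF23 (-0.65), SRSF3 (-0.35), SUPT16H (-0.27) and AUP1 (-0.24).

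Among the genes that rose, ACAD11, an acyl-CoA dehydrogenase of fatty acid breakdown, had gene values of 6.33, 6.45 and 6.21 with Lipofectamine and of 7.09, 6.98 and 6.94 with SRSF1 siRNA. It rose by 0.67 (standard error 0.067), or 1.59-fold. MYCBP2, a large ubiquitin ligase that binds the MYC protein, had 7.03, 7.13 and 6.95 against 7.61, 7.36 and 7.37. The first SRSF1 siRNA sample was the highest, the groups did not overlap, and the rise was 0.41 (standard error 0.069). AC024560.3 had 7.16, 7.28 and 7.06 against 7.50, 7.54 and 7.50, with a rise of 0.35 (standard error 0.058). With the mean of all paths the rises were 0.41 in ACAD11, 0.26 in MYCBP2 and 0.21 in AC024560.3. Taking the median over the reference paths gave a rise of 0.63 in MYCBP2. NCOR1, a corepressor of nuclear receptors that recruits histone deacetylases, had 8.96, 9.14 and 9.03 against 8.96, 8.92 and 8.87, and its change of -0.13 (standard error 0.059, adjusted p = 0.0937) did not pass. Its samples nearly touched, with the lowest Lipofectamine sample just above the highest SRSF1 siRNA sample. Without Lipofectamine sample 1, NCOR1 had a change of -0.17 and passed (adjusted p = 0.0437).

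**Figure D2:**
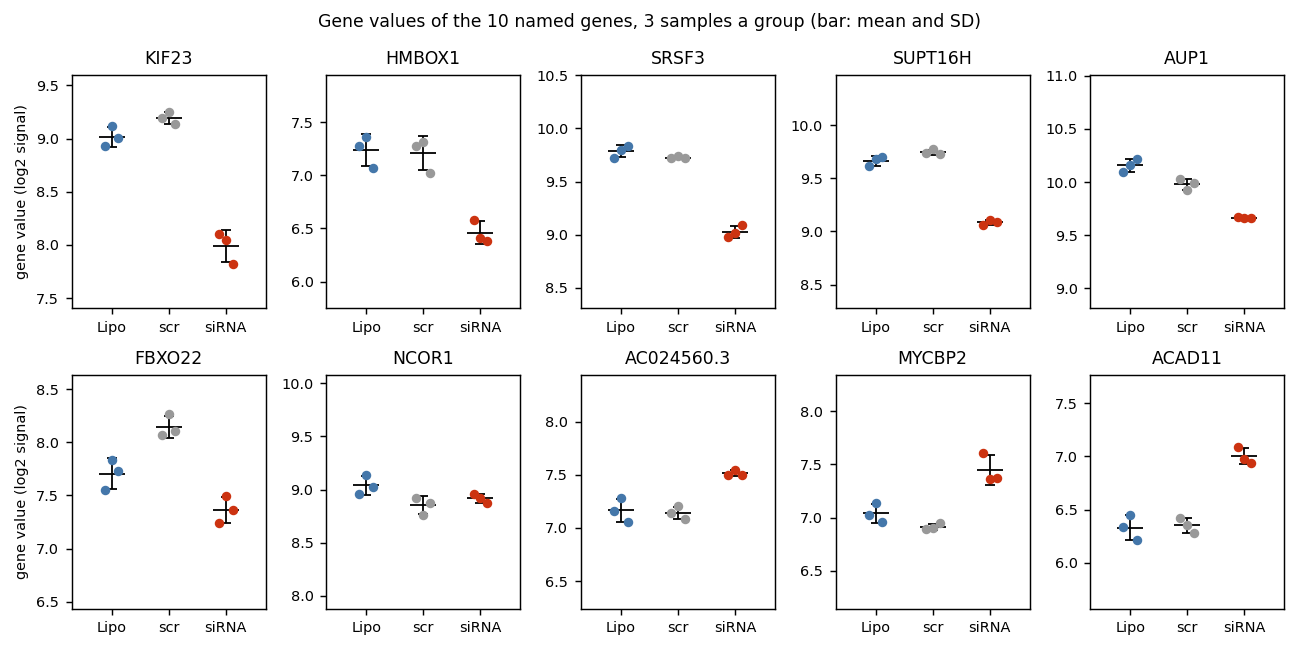
Gene values (log2 signal averaged over reference paths, vertical) of the 10 named genes in the 3 samples of Lipofectamine (Lipo), scramble siRNA (scr) and SRSF1 siRNA (siRNA), with the mean and SD as bars, each panel spanning the same range of log2 units. The SRSF1 siRNA samples lie below both controls in KIF23, HMBOX1, SRSF3, SUPT16H, AUP1 and FBXO22 and above both in AC024560.3, MYCBP2 and ACAD11, and in FBXO22 the scramble samples lie above Lipofectamine.

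Splicing changed in 1569 of the 25805 events tested (6.08%), which lay in 1244 genes. Path 1 was up in 753 of them and path 2 in 816, so neither the longer nor the shorter path was favoured by a wide margin. An unadjusted p under 0.05 was found in 3645 events. The smaller of the 2 changes of a called event was 0.23 at the median and the larger one 0.48, both on the log2 scale. Both paths changed over 1.5-fold in 95 called events and over 2-fold in 11. The test sums the p-values of the paths and can pass on a modest p in one of them. Among the called events, both paths were significant alone in 778, only one of the paths was in 713 and neither was in 78. When each path had to give a small p, by taking the larger p of the 2 paths, 338 events passed.

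In 1019 of the called events the groups were fully separated in path 1 as well as in path 2, and over all events tested this was so in 20.9%. More than 1 event was called in 251 genes, and in 108 genes called events went both ways, which can occur because the number of a path depends only on its length relative to its alternative. AUP1 had the most called events, 6, and 4 further genes, which have no name here, had 5. The share of called events differed little with the strength of the weaker path. It was 7.09% of 6826 events whose weaker path had a mean signal of 6 or less, 5.31% of 5202 events between 7 and 8 and 5.28% of 2444 above 8.

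The path that had the higher signal with Lipofectamine was the one that fell in 1067 of the called events (68.0%). The filter uses the highest signal of a path over all samples. A path dim with Lipofectamine could thus enter only through a higher signal in another sample, which favours a fall of the brighter path in this share. The share over all tested events was not computed, so no conclusion is drawn from it. Probes differ between the paths, so a brighter path is not always the more abundant isoform. The reference path was lower in 611 of the called events (38.9%) and higher in 223 (14.2%), where 19.7% and 19.4% of all tested events had a lower or higher reference path. Its median change was -0.13 in called events and 0.029 in all events tested. Seen by gene, 11.4% of the 6474 tested events in genes that were lower with SRSF1 siRNA were called, against 4.18% of 6882 events in higher genes and 4.45% of 11846 events in genes that did not pass. Of the 1229 tested genes with a called event, 554 (45.1%) were lower and 247 (20.1%) higher. The gene value is made from the reference paths of the same events and the same samples, so these shares describe the arrays and were not tested.

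**Figure D3:**
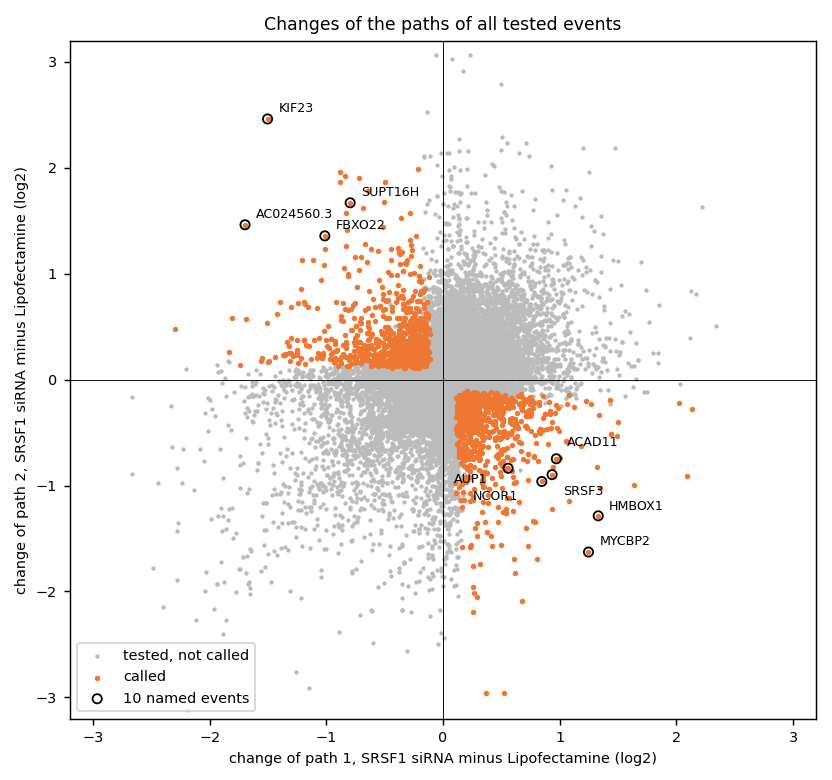
Change of path 2 (log2, vertical) against change of path 1 (log2, horizontal) with SRSF1 siRNA against Lipofectamine, each point 1 of the 25805 tested events, called events in orange and the 10 listed events circled, with 1 event outside the drawn range. Called events lie only in the upper left and lower right, where the paths move apart. The listed events lie among the larger changes, with AUP1 nearest to the centre of the plot.

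The 10 events listed by ID were all called, with path 1 up in 6 and path 2 up in 4. Each of their paths also passed by itself, and in none of them did the samples of the groups overlap in path 1 or path 2. All 10 were also called when the larger p of the 2 paths was used. With the spread of each path taken by itself, all 10 were called too, but each adjusted p was larger. It was 1.71e-11 against 3.01e-24 in AC024560.3 and 4.15e-15 against 2.36e-23 in KIF23. Ranked by p over all events tested, 8 of the 10 listed events came within the first 13, and ACAD11 and AUP1 came at positions 29 and 42. With the filter at the 50% quantile, 7 of the 10 were tested and all 7 were called. They also hold 4 of the 10 largest events with path 1 up and 3 of the 10 largest with path 2 up, by the smaller change of the paths. The listed events head the study's own ranking of SRSF1 siRNA against scramble siRNA, which used the same SRSF1 siRNA samples. Their calls, ranks and sizes here are therefore no separate evidence.

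In 3 of the 4 cassette events the path with the exon fell and the path without it rose. The event of AC024560.3 came first by p. Path 1, with the exon, had 9.07, 9.00 and 8.92 with Lipofectamine and 7.26, 7.29 and 7.34 with SRSF1 siRNA, a 3.24-fold fall. Path 2 had 6.44, 6.98 and 6.52 against 8.21, 8.15 and 7.96, a 2.76-fold rise (limma adjusted p = 3.01e-24). With Lipofectamine path 1 lay 2.35 ± 0.31 (SD, n = 3) above path 2, and with SRSF1 siRNA it lay below it, at -0.81 ± 0.17 (SD, n = 3). The reference path rose by 0.34 (adjusted p = 0.00651), in the direction of the gene value.

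The event of KIF23 came second by p. Path 1 had 8.71, 8.87 and 8.81 with Lipofectamine and 7.35, 7.36 and 7.17 with SRSF1 siRNA. It was 2.84-fold lower, and the reference path fell by 1.01 on the log2 scale. Path 2, without the exon, had 4.37, 4.11 and 4.38 against 6.96, 6.76 and 6.52, a rise of 2.46 (standard error 0.11, limma adjusted p = 2.36e-23), so the isoform without the exon gained signal while the signal shared by both isoforms went down. Over the 9 single hybridizations path 2 lay between 3.71 and 4.46 with Lipofectamine and between 6.31 and 7.07 with SRSF1 siRNA. All 9 hybridizations with Lipofectamine lay under the threshold of expression of 5.77, so the size of the rise is uncertain. Path 2 lay under it in all scramble samples too. The event therefore entered the test only through the SRSF1 siRNA samples, and its p is no separate evidence of the rise.

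FBXO22 had a single event in the table. Path 1 had 9.50, 9.54 and 9.53 with Lipofectamine and 8.41, 8.52 and 8.59 with SRSF1 siRNA, and fell by 1.01. Path 2 had 8.04, 7.94 and 8.02 against 9.29, 9.39 and 9.39, a rise of 1.36 (standard error 0.086, limma adjusted p = 6.11e-20). The order of the paths turned over, from 1.52 ± 0.074 (SD, n = 3) for path 1 minus path 2 with Lipofectamine to -0.85 ± 0.046 (SD, n = 3).

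The event of NCOR1 went the other way, with the exon path up. Path 1 had 8.40, 8.59 and 8.60 with Lipofectamine and 9.45, 9.37 and 9.31 with SRSF1 siRNA, a rise of 0.85. Path 2 had 9.95, 10.24 and 10.12 against 9.24, 9.17 and 9.00, and fell by 0.96 (standard error 0.091, limma adjusted p = 4.25e-16). The reference path did not pass (-0.023, adjusted p = 0.88), so in NCOR1 the paths moved apart while neither the shared signal nor the gene value was called.

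**Figure D4:**
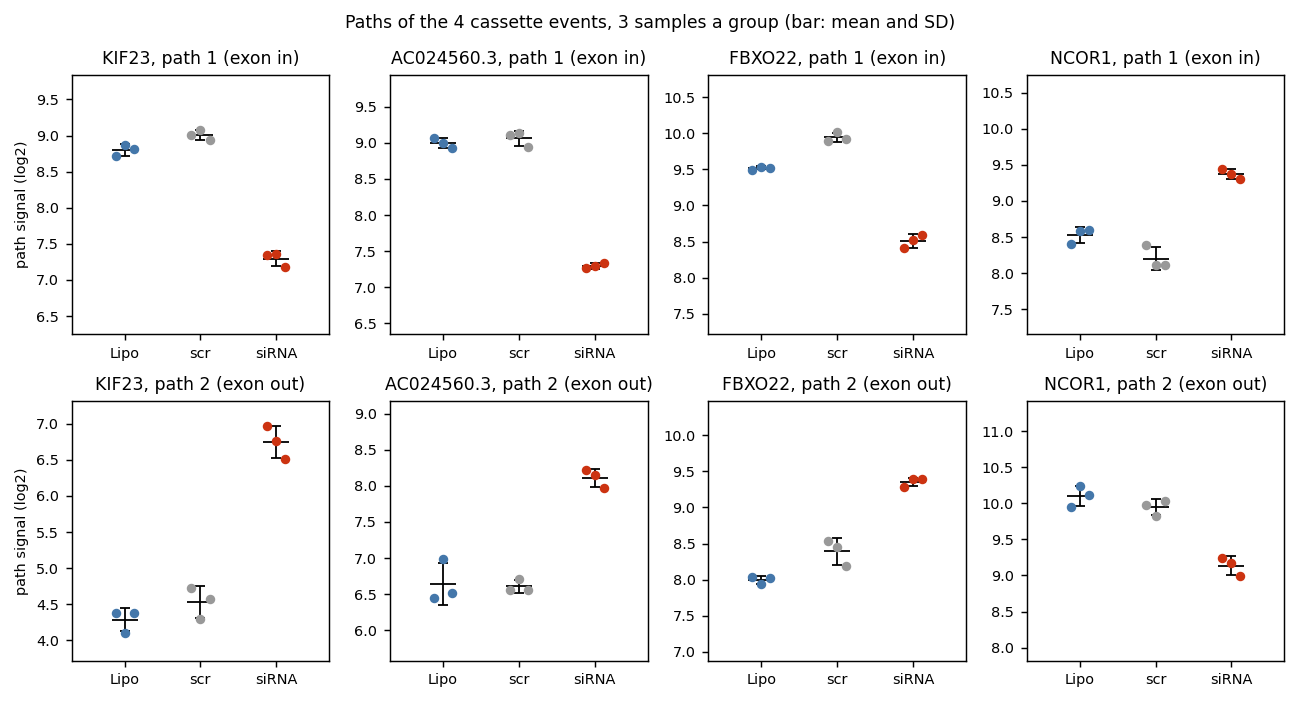
Path signals (log2, vertical) of the 4 cassette events (KIF23, AC024560.3, FBXO22, NCOR1) in the 3 samples of Lipofectamine (Lipo), scramble siRNA (scr) and SRSF1 siRNA (siRNA), with the mean and SD as bars and the path with the exon in the upper row. With SRSF1 siRNA the exon path is down and the path without the exon is up in the first 3 genes, and NCOR1 shows the reverse.

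The complex events, which fit none of the simple types, were those of MYCBP2, SRSF3 and ACAD11, and path 1 rose in each. The event of MYCBP2 spans bases 77673020 to 77695630 of chromosome 13 (GRCh37). Path 1 had 6.65, 6.78 and 6.77 with Lipofectamine and 8.14, 7.88 and 7.91 with SRSF1 siRNA. Path 2 had 7.96, 8.10 and 7.65 against 6.46, 6.298 and 6.07. Path 1 changed by 1.25 and path 2 by -1.63 (standard error 0.11; limma adjusted p = 1.43e-19), and path 1 went from below path 2 in every Lipofectamine sample to above it in every SRSF1 siRNA sample.

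The event of SRSF3 lies on chromosome 6 from 36566626 to 36568967. Path 1 had 8.12, 8.03 and 8.30 with Lipofectamine and 8.96, 9.03 and 9.28 with SRSF1 siRNA, and path 2 had 10.22, 10.22 and 10.37 against 9.33, 9.35 and 9.44. Path 1 changed by 0.93 and path 2 by -0.90 (standard error 0.078; limma adjusted p = 1.53e-19). The gap between the paths closed without turning over, from -2.12 ± 0.065 (SD, n = 3) to -0.29 ± 0.11 (SD, n = 3), while the reference path fell by 0.61. A further event of SRSF3, number 5, had path 1 down by 0.84 and path 2 up by 0.67 (adjusted p = 4.17e-13). In each of these SRSF3 events it was the brighter path that lost signal.

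In ACAD11 the event lies on chromosome 3 from 132297677 to 132298402. Path 1 had 6.06, 6.03 and 5.996 with Lipofectamine and 7.05, 6.92 and 7.04 with SRSF1 siRNA, and path 2 had 7.12, 7.11 and 6.82 against 6.21, 6.22 and 6.38. Path 1 changed by 0.97 and path 2 by -0.75 (standard error 0.096; limma adjusted p = 1.66e-13). Here the gene value rose while path 2 was lower, but path 1 of this event is also the reference path of event 14. That path therefore enters the gene value. The event's own reference path rose by 0.47.

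The remaining listed events change the ends of a transcript or keep an intron. SUPT16H has an alternative last exon on chromosome 14 from 21837979 to 21852105. Path 1 had 9.61, 9.76 and 9.75 with Lipofectamine and 8.86, 8.93 and 8.94 with SRSF1 siRNA, and fell by 0.80. Path 2 had 6.45, 6.16 and 6.11 against 8.002, 7.92 and 7.81, a rise of 1.67 (standard error 0.086, limma adjusted p = 4.74e-16). Path 1 stayed above path 2 in every sample, by 3.47 ± 0.27 (SD, n = 3) with Lipofectamine and by 1.00 ± 0.14 (SD, n = 3) with SRSF1 siRNA.

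The alternative first exon of HMBOX1 lies on chromosome 8. Path 1 had 4.57, 4.81 and 4.46 with Lipofectamine and 6.06, 5.95 and 5.82 with SRSF1 siRNA, and path 2 had 6.95, 7.06 and 6.69 against 5.72, 5.69 and 5.43. The changes were 1.33 and -1.29 (standard error 0.12, limma adjusted p = 2.38e-18). Path 1 lay under the threshold of expression in all Lipofectamine samples and just over it in all SRSF1 siRNA samples. Path 2 lay over it in all Lipofectamine samples and under it in all SRSF1 siRNA samples, so the sizes of both changes are uncertain. Path 1 lay under it in all scramble samples too. The event therefore entered the test only through the SRSF1 siRNA samples, and its p is no separate evidence of the rise of path 1.

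AUP1 has a retained intron on chromosome 2 from 74754863 to 74755133, where path 1 is the path of the larger genomic length. Path 1 had 7.76, 7.69 and 7.80 with Lipofectamine and 8.44, 8.27 and 8.21 with SRSF1 siRNA, a rise of 0.56. Path 2 had 10.63, 10.57 and 10.66 against 9.79, 9.76 and 9.80, and fell by 0.84 (standard error 0.076, limma adjusted p = 1.06e-12). Path 2 remained the path of the higher signal in all samples.

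The 10 named genes have 70 events in the table, of which 38 were tested and 18 called. Beside the listed events, 28 were tested and 8 were called, which is no sample of all events since the genes were chosen for a called event. Path 1 was up in 6 of these 8 and path 2 in 2. In AUP1, 5 further events were called, all with path 1 up. Their path 1 rose by 0.13 to 0.52 and their path 2 fell by 0.54 to 0.87. Events of a gene are not independent, since 6 of the 38 tested events share their path 2 and 8 their reference path with another. Event 19 of NCOR1 had path 1 up by 0.29 and path 2 at -0.43 (adjusted p = 8.41e-06). Event 12 of MYCBP2 ran against its listed event in the names of the paths, with changes of -0.20 and 0.65 (adjusted p = 0.042), and its samples overlapped in path 1.

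Of the 20 other tested events that were not called, 7 had both paths passing by themselves in the same direction. The share over all tested events was not computed, so the count is not read as a trait of these genes. KIF23 shows such events best. In its event 4 path 1 changed by -2.32 and path 2 by -0.63, and in event 12 the paths changed by -0.83 and -0.86, close to the fall of the gene value. In SRSF3 event 6 they changed by -0.59 and -0.59, and in ACAD11 event 14 by 0.95 and 0.70. In event 11 of HMBOX1, path 2 changed by -1.53 and path 1 by 0.13, and the event was not called (adjusted p = 0.371).

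**Figure D5:**
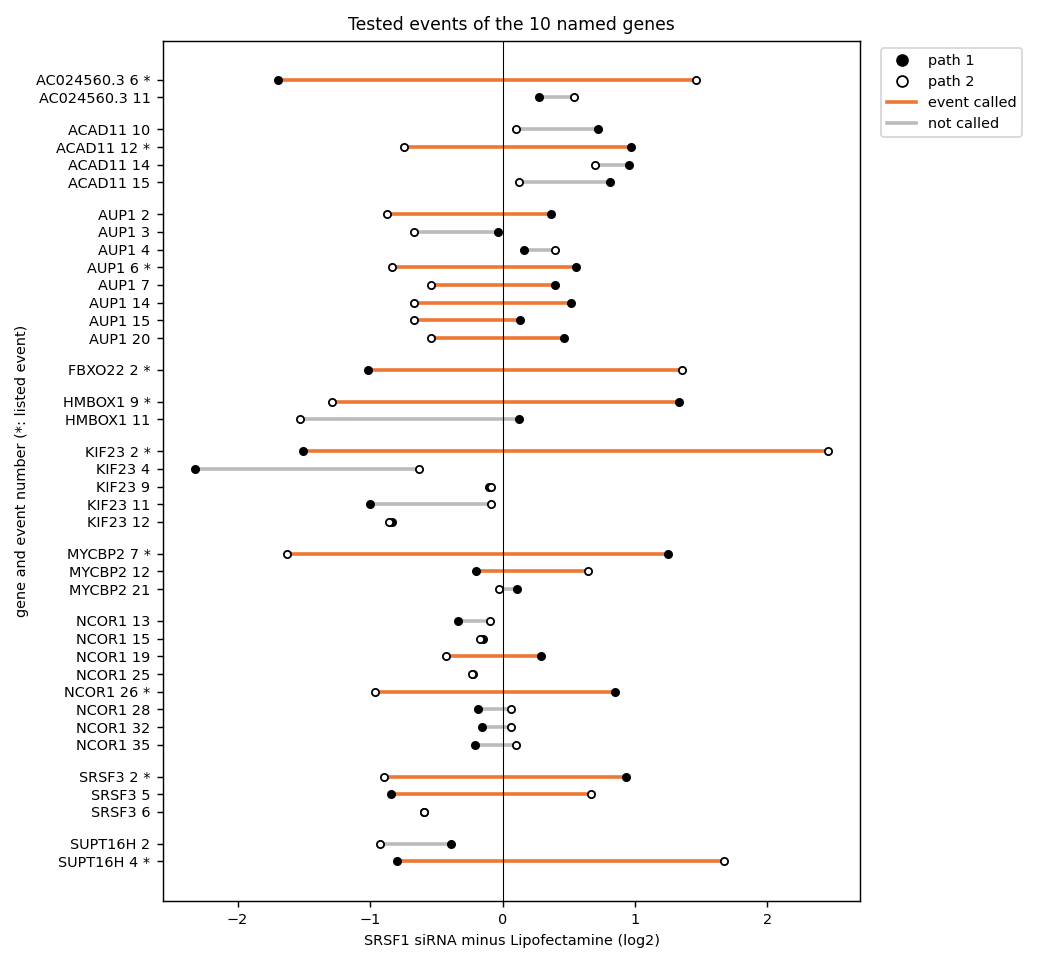
Changes of path 1 (filled) and path 2 (open) with SRSF1 siRNA against Lipofectamine (log2, horizontal) in the 38 tested events of the 10 named genes, 1 row an event, with called events joined in orange and the listed events starred. The called events span 0, and in KIF23 all events but the listed one have both paths at or below 0.

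The difference between scramble siRNA and Lipofectamine tests where the choice of control moves a result, since SRSF1 siRNA is compared with each. Few events differed between the controls, 71 of those tested (0.275%), and 43 to 191 under the alternatives, with the highest number when the sample number was a replicate block. Genes differed more often, 2527 of those tested (20.1%), 1396 higher with scramble siRNA and 1131 lower, of which 13 and 17 changed over 2-fold. The median change was -0.00094 on the log2 scale. Of the 10 listed events, 0 were called between the controls by limma and 0 had an unadjusted p under 0.05. Single paths passed between the controls in 2 of them, FBXO22 and NCOR1.

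FBXO22 differed most between the controls among the named genes. Its gene value was 8.07, 8.27 and 8.10 with scramble siRNA, above all Lipofectamine samples, a difference of 0.44 (standard error 0.083, adjusted p = 0.00342). The fall with SRSF1 siRNA was therefore 0.34 against Lipofectamine and 0.78 against scramble siRNA. Both of its paths were also higher with scramble siRNA, by 0.42 and 0.39, so the opposite changes of the event held against each control, at -1.43 and 0.96 against scramble siRNA. In NCOR1 the gene value was lower with scramble siRNA by 0.19 (adjusted p = 0.0415), and path 1 of its event was lower by 0.33 (adjusted p = 0.0244). AUP1 was lower by 0.18 (adjusted p = 0.0230). In the other 7 named genes the gene value did not pass between the controls, with changes from -0.12 in MYCBP2 to 0.17 in KIF23.

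The choice of control also moved the size of single large rises. Of the 10 genes that rose most against Lipofectamine, 2 were also higher with scramble siRNA than with Lipofectamine and 1 was lower. Over all 12545 genes tested, 1396 were higher and 1131 lower with scramble siRNA, so these counts do not set the 10 genes apart. Both comparisons also share the Lipofectamine samples. The gene with the third largest rise lay at 4.51 ± 0.30 in the Lipofectamine samples, at 6.77 ± 0.42 in the scramble samples and at 6.83 ± 0.17 in the SRSF1 siRNA samples (SD, n = 3). It rose by 2.32 against Lipofectamine and by 0.061 against scramble siRNA (adjusted p = 0.798), so this rise was measured with either siRNA. All its Lipofectamine samples lay under the threshold of expression, so the size of the rise against Lipofectamine is uncertain. Against scramble siRNA, 8 of these 10 genes were called. Of the 10 genes that fell most, 3 were higher and 1 was lower with scramble siRNA than with Lipofectamine, and all 10 were called against scramble siRNA too. The genes of largest rise and fall were picked by the same SRSF1 siRNA samples, so their calls against scramble siRNA are no separate evidence. The share of all genes called against scramble siRNA is not given here.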

How the data were processed

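RNA of A549 cells was hybridized to HTA 2.0 arrays. The authors mapped the probes to the Ensembl transcriptome with Bowtie 2.0, grouped them by the paths of splicing events and ran background correction, quantile normalization over all arrays and RMA summarization, so each deposited value is the log2 signal of a path. They were used without further normalization, and the number of arrays limits their precision. Hybridizations were averaged per sample number. All 9 samples were fitted in limma 3.58.1 (R 4.3.3) with the design of the methods, 1 spread for the 3 paths of an event, and p-values adjusted by Benjamini and Hochberg. Events were kept where the highest signal of every path passed the 25% quantile of the highest reference signals (5.77) and genes where their highest value did. Same-numbered samples of the 2 groups deviated together across events (0.190, 0.110 and 0.171) and genes (0.281, 0.176 and 0.395), and every pair exceeded 0.1, the rule for pairing. The main fit did not use this pairing, so its standard errors and p-values ignore it. With the sample number as a block, 1879 events were called against 1569, and 7040 genes against 6502. The event fit and the gene fit were tested on simulated data. The simulated noise was independent between samples, so it did not copy the shared deviations of same-numbered samples. It was also independent between the paths of an event, so the simulation could not check how the event fit combines them.

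Named were the 10 events listed with an ID in the study's supplement, the other events of their genes, and by ID the 2 largest rises and falls among called genes whose samples did not overlap. An event with an empty symbol in that list was named AC024560.3 from its position. Of 16733 gene IDs, 0 matched the table of names, so gene lists, cell type markers and SRSF1 were not analysed here. Positions and types are the study's, on GRCh37. The members and lists were chosen with earlier results of these data known. Alternatives concerned scaling, filter, spread, test, hybridizations, left-out samples and the replicate block.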

Additional observations from a re-analysis of the deposited data

How the results depend on the processing

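All calls and directions of the 10 listed events held under the alternatives run on them (scaling, 6 samples, replicate block, left-out samples). The called events numbered 469, 862 and 1270 with only hybridization 1, 2 or 3 of each sample, 2988 with no filter on expression, 573 with the filter at the 50% quantile and 338 where the larger p of the paths was used, with 1569 as reported. With hybridization 1 alone, 4198 genes were called, 2199 higher and 1999 lower. Leaving out a sample gave 1084 to 1646 events and 5797 to 6319 genes, 3037 to 3396 of them higher and 2737 to 2988 lower. With the sample number as a replicate block, 1879 events and 7040 genes passed, and no call of the 10 listed events or of the 10 named genes changed. Between scramble siRNA and Lipofectamine the block gave 191 events and the 50% quantile 43, against 71. With the mean of all paths FBXO22 had a change of 0.00094. Taking the replicate number as the biological replicate gave 2334 events and 8140 genes. Without hybridization 1 of Lipofectamine sample 1, an alternative chosen after seeing the data, 1977 events and 6923 genes passed. The causes were not tested. A path near or under the threshold of expression, as in KIF23 and HMBOX1, limits the size of a change that can be read.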
